A study of Arabidopsis thaliana with 12 samples.

Results

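The response of Arabidopsis thaliana Col-0, the reference accession, to growth in soil with YC4-R4 was described across all expressed genes. The comparison used 6 of the 12 libraries of the series: 3 from Col-0 plants in YC4-R4 soil and 3 from Col-0 plants in regular soil, called control. The other 6 libraries came from plants labelled rdd, which lack by label the demethylases ROS1, DML2 and DML3 that remove methylated cytosine from DNA, in the same pair of soils, and they entered the shared fit. All plants were 2 weeks old and were taken whole, and the design calls the 3 libraries of a group biological replicates. YC4-R4 is named in the labels only as a soil treatment, and beneficial bacteria of the root are the subject given by the title. No dose, day of harvest or pot layout is given in the sources used here, so soil effects and any other effect common to all 3 libraries of 1 soil, such as plant size or harvest, cannot be told apart.

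Soil bacteria that live on roots can change gene activity in leaves as well as roots, and plants commonly respond to microbes, touch and other disturbance through a shared set of rapidly induced genes. Such early genes encode transcription factors of the AP2/ERF, WRKY, MYB and zinc finger families, calcium sensors and ubiquitin ligases, and their transcripts turn over quickly. Growth, in contrast, draws on large sets of genes for ribosomes, chloroplasts and cell walls, whose transcripts are abundant and move by small amounts.

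The counts of the 6 Col-0 libraries summed to between 15521686 and 20281801, and the biological coefficient of variation, the spread between replicates beyond counting noise, was 3.06% in control and 2.58% in YC4-R4 libraries. In bulk RNA from whole plants, fewer cells of a type and less RNA per cell cannot be told apart. The label of whole plants was checked against organ markers: the 15 root markers summed to 1204 to 1232 CPM (read counts scaled to the same library size) in control and 1099 to 1113 CPM in YC4-R4 libraries, and the 9 leaf markers to 38025 to 39958 and 31668 to 32152 CPM. The 7 flower and pollen markers summed to no more than 3.32 CPM and the 7 seed markers to no more than 0.562 CPM in any Col-0 library. Levels of the genes named by the rdd label did not follow the genotype labels, so rdd values are given as those of libraries labelled rdd. In control, DML2 stood at 19.9 ± 0.42 CPM in Col-0 and 20.7 ± 2.1 CPM in rdd, and DML3 at 4.97 ± 0.79 and 3.52 ± 0.14 CPM. With YC4-R4 the means were 13.0 and 13.5 CPM for DML2 and 0.775 and 0.599 CPM for DML3. Counts of a gene do not show whether its product works, so they do not decide whether the labels hold. In Col-0, DML3 stood at 4.5, 5.89 and 4.53 CPM in the control libraries and at 1.07, 0.937 and 0.316 CPM with YC4-R4 (log2 -2.63 ± 0.27), DML2 changed by -0.62 ± 0.09 and ROS1 by -0.24 ± 0.05 on the log2 scale, all called lower.

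Of 20651 tested genes, 6145 differed between the soils (29.8%; adjusted p under 0.05 by the Benjamini-Hochberg method, edgeR quasi-likelihood test): 2661 were higher with YC4-R4 (12.9%) and 3484 lower (16.9%). Most changes were small. The median size of a called change was 0.33 on the log2 scale, and 2270 called genes (36.9% of them) moved by less than 1.2-fold. A change of 2-fold or more was called for 204 genes that rose (0.988% of tested genes) and 478 that fell (2.31%). At 4-fold or more the split was 28 higher against 121 lower, and at 8-fold or more 7 against 46. The libraries of the 2 soils did not overlap for 5933 called genes (96.6% of them) and for 8919 of all tested genes (43.2%). Such separation largely goes with being called and is no separate result.

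**Figure D1:**
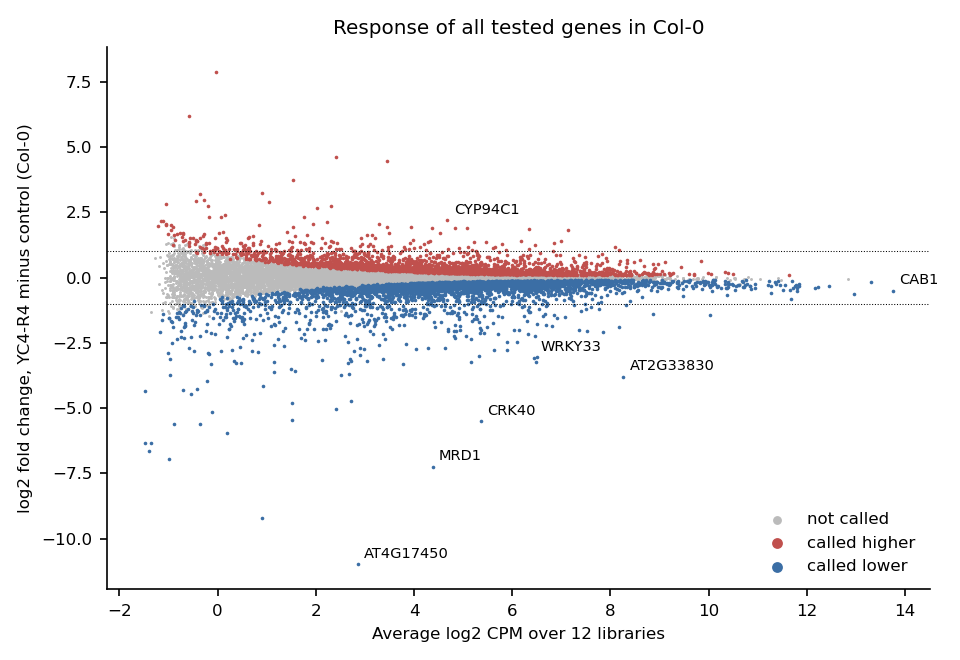
Log2 fold change with YC4-R4 in Col-0 (vertical axis) against average log2 CPM over the 12 libraries (horizontal axis) for each of the 20651 tested genes, with dotted lines at 2-fold. Blue points, 3484 genes called lower, reach further from 0 than red points, 2661 genes called higher.

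How the libraries are scaled decides how the small changes divide. With library totals in place of TMM scaling factors, which are set so that most genes centre on no change, the median of all tested genes moved from 0.00 to 0.11 on the log2 scale, and the calls split into 5879 higher and 2172 lower, so that 56.7% of calls were lower under TMM but 27% under totals. The larger changes moved less: 294 genes were 2-fold or more higher and 403 lower under that scaling. The 10 most counted genes took 7.33% to 7.66% of the counts in control and 6.25% to 6.30% in YC4-R4 libraries. Below, where a family's balance of higher and lower calls turns with this scaling, both counts are given.

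The genes that fell furthest were a mixed set of stress genes, a receptor kinase, and genes of unknown function. Over the 15 genes with the lowest fold changes that passed the rule for naming, the largest adjusted p was 2.2e-10 (edgeR). AT4G17450, an uncharacterised gene, was counted at 14.5, 13.9 and 14.2 CPM in control and had no count in any YC4-R4 library, where 764 control counts stood against 0. Taking 3 counts over the group as the floor, it was at least 227-fold lower. MRD1, named for its response in a mutant that accumulates methionine, stood at 34.9, 37.3 and 36.7 CPM in the control libraries and at 0.0511, 0.5 and 0.19 CPM with YC4-R4 (log2 -7.24 ± 0.17). Its YC4-R4 values differed several-fold among themselves, and without YC4-R4 replicate 2 its log2 change was -8.24. CRK40, a cysteine-rich receptor-like kinase, stood at 92.1, 96.9 and 93.9 CPM in the control libraries and at 2.2, 1.75 and 2.28 CPM with YC4-R4 (log2 -5.5 ± 0.1). Genes were named for the highest and lowest fold changes only where control and YC4-R4 libraries did not overlap, so that separation belongs to the choice and is no result.

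ACS11, an enzyme that makes the ethylene precursor ACC, stood at 13.1, 15.1 and 15 CPM in the control libraries and at 0.409, 0.562 and 0.316 CPM with YC4-R4 (log2 -5.05 ± 0.2). QQS, an orphan gene known to influence starch content, stood at 4.7, 6.73 and 7.07 CPM in the control libraries and at 0.255, 0.25 and 0.126 CPM with YC4-R4 (log2 -4.8 ± 0.31). AT2G33830, a dormancy and auxin associated gene, stood at 398, 396 and 403 CPM in the control libraries and at 27.8, 30.5 and 28.4 CPM with YC4-R4 (log2 -3.79 ± 0.06). Relative to its mean, QQS varied more between control libraries than the other two. AT1G35210, uncharacterised, stood at 18.2, 19.5 and 20.4 CPM in the control libraries and at 0.511, 1.0 and 0.695 CPM with YC4-R4 (log2 -4.73 ± 0.18). A pair of leucine-rich repeat genes also fell, AT2G15042 by 3.72 and AT3G46370, a receptor-like kinase, by 3.7 on the log2 scale. AT3G47965 (-5.46 ± 0.36), AT5G26270 (-3.27 ± 0.16) and AT1G08940, annotated as a phosphoglycerate mutase family member (-3.51 ± 0.28), completed the uncharacterised or poorly known members; without YC4-R4 replicate 1 the value of AT1G08940 was -4.31.

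Transcription factors were also among the genes that fell furthest. Of the 10 transcription factors with the largest changes, 9 fell and 1 rose, and 8 of the 10 belong to the AP2/ERF family. WRKY33, a regulator of responses to fungal pathogens, stood at 235, 246 and 256 CPM in the control libraries and at 26.3, 31.9 and 30.2 CPM with YC4-R4 (log2 -3.07 ± 0.07). ERF104, an ethylene response factor, stood at 230.2, 229 and 237 CPM in the control libraries and at 28.9, 25.9 and 29.1 CPM with YC4-R4 (log2 -3.05 ± 0.05). MYB77, a MYB factor linked to auxin responses, stood at 111, 119 and 125 CPM in the control libraries and at 15.4, 15.7 and 13.7 CPM with YC4-R4 (log2 -2.98 ± 0.06). The 3 changes were close in size. CBF1 (8.43 ± 0.76 to 0.72 ± 0.42 CPM) and CBF2 (19.4 ± 1.5 to 2.13 ± 0.18 CPM), activators of cold-response genes, fell as well. ORA47 (log2 -3.12 ± 0.15), which can activate jasmonate synthesis genes, ERF13 (-3.13 ± 0.17), AT5G51190 (-3.25 ± 0.06) and AT1G33760 (-2.71 ± 0.12) are AP2/ERF factors that fell in the same range. Each of the 9 that fell was already lower in control libraries labelled rdd than in Col-0 control libraries. Mean levels in rdd control were 43.9 CPM for WRKY33, 58.2 for ERF104, 14.6 for MYB77, 1.12 for CBF1 and 1.99 for CBF2. They were 10.2 CPM for ORA47, 7.96 for ERF13, 18.4 for AT5G51190 and 2.18 for AT1G33760. The factor that rose was ABR1, an AP2/ERF repressor of abscisic acid responses, at 1.55, 0.897 and 1.09 CPM in the control libraries and at 7.92, 9.0 and 7.14 CPM with YC4-R4 (log2 2.75 ± 0.2).

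Among genes that rose, jasmonate-modifying enzymes, an abscisic acid receptor, a calcium-dependent kinase and a few poorly known genes stood highest. The largest adjusted p over the 15 genes named for the highest fold changes was 1.6e-08 (edgeR). CPK22, a calcium-dependent protein kinase, stood at 0.414, 0.449 and 0.302 CPM in the control libraries and at 10.1, 8.44 and 10.7 CPM with YC4-R4 (log2 4.62 ± 0.23). AT5G35935, uncharacterised, stood at 1.09, 1.12 and 0.483 CPM in the control libraries and at 18.9, 23.3 and 19.1 CPM with YC4-R4 (log2 4.47 ± 0.17). Both were low in every control library and high in every YC4-R4 library. AT2G38240, a 2-oxoglutarate oxygenase that hydroxylates jasmonic acid, stood at 0.465, 0.168 and 0.423 CPM in the control libraries and at 4.5, 4.62 and 5.31 CPM with YC4-R4 (log2 3.74 ± 0.29).

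CYP94C1 and CYP94B1 oxidise the active hormone jasmonoyl-isoleucine. CYP94C1 stood at 9.15, 8.47 and 9.3 CPM in the control libraries and at 39.9, 42.3 and 41.3 CPM with YC4-R4 (log2 2.2 ± 0.08). CYP94B1 rose from 1.56 ± 0.43 to 9.91 ± 0.56 CPM (log2 2.67 ± 0.17). TPS04, which makes a precursor of a volatile homoterpene, rose from 1.14 ± 0.26 to 5.85 ± 0.79 CPM. PYL6, an abscisic acid receptor, rose from 2.32 ± 0.25 to 8.8 ± 1.3 CPM, and PR2, a glucanase that marks salicylic acid responses, from 5.82 ± 0.48 to 22 ± 1.8 CPM. The other genes of the set were RBL7, a rhomboid-like protein (2.87 ± 0.26), BAM5, the beta-amylase of the phloem (2.11 ± 0.16), CSLA01, a cellulose synthase-like protein (2.06 ± 0.11), ASPGB1, an asparaginase (2.04 ± 0.16), ERF53, a drought-responsive AP2/ERF factor (1.95 ± 0.23), and AT1G78170, annotated as a ubiquitin ligase (1.9 ± 0.1).

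**Figure D2:**
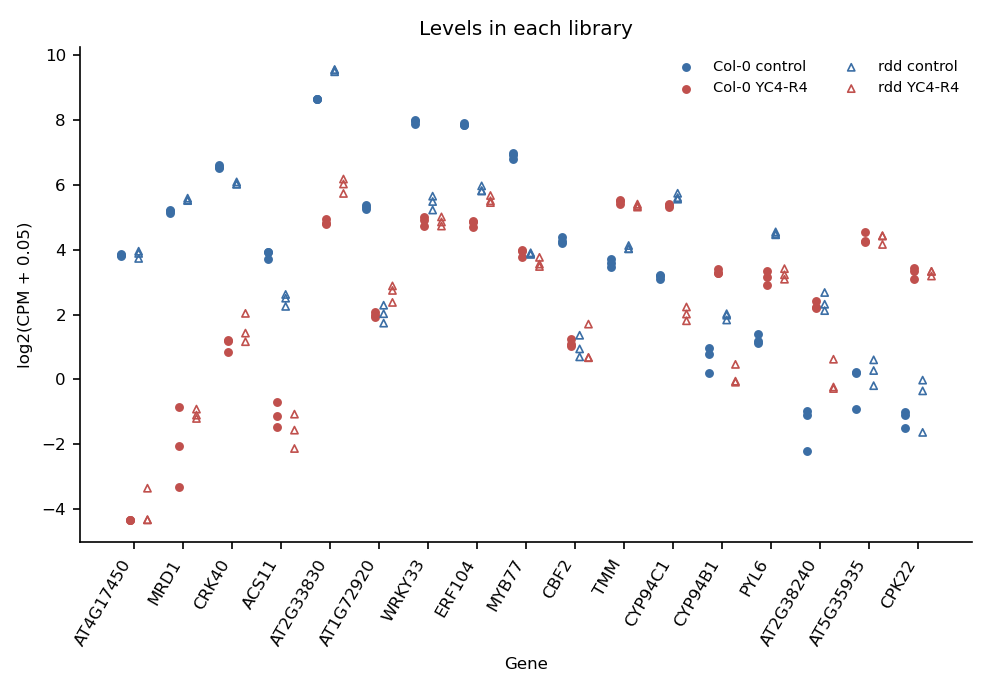
Levels of 17 genes in every library, as log2 of CPM plus 0.05 (vertical axis); circles are Col-0, triangles rdd, blue control and red YC4-R4. The Col-0 control and YC4-R4 circles are separate for each gene, while the rdd triangles follow the circles for AT4G17450, MRD1 and CPK22 and lie close together for WRKY33 and ERF104.

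In all, 10 genes had no count in any library of one soil and at least 30 counts over the 3 Col-0 libraries of the other. Of these, 9 were without counts in YC4-R4. AT4G17450 was given above, and AT2G01422 went from 221 counts to 0, at least 65.5-fold lower. The others held 30 to 46 counts in control: AT2G19200, AT2G05950, AT5G39150, AT5G39180, AT2G06002, AT5G37950 and SADHU3-2, a member of a retroposon family. In the other direction, AT3G61330 had 0 counts in control and 85 with YC4-R4, at least 31.9-fold higher. In the libraries labelled rdd, which share no library with this comparison, one soil was again at 0 for 5 of the 10: AT2G01422 had 153 control counts against 0, AT5G37950 29 against 0, SADHU3-2 22 against 0, AT2G06002 18 against 0, and AT3G61330 0 against 98. The other 5 kept counts in both soils. AT4G17450 had 746 control counts against 1, AT5G39150 16 against 1, AT5G39180 14 against 2, AT2G05950 16 against 4 and AT2G19200 31 against 6.

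Genes that fell by 2-fold or more also stood side by side. Among tested genes in chromosome order, 8 runs of at least 3 neighbours fell together by that measure, and none rose together. More genes fell than rose by that measure (478 against 204), and the number of runs to expect was not tested. The run of ACS11, AT4G08112 and AT4G08115 is loose, from 4886962 to 5077893 on chromosome 4. It depends on AT4G08112, which lost its call with DESeq2, with no filter and in the test against a fold of 1.2. That call was also lost without control replicate 1, control replicate 2, YC4-R4 replicate 1 or YC4-R4 replicate 2. The longest run held 5 germin-like genes on chromosome 5 between 15657697 and 15693735 (TAIR10.1), with AT5G39110 at -5.16, AT5G39120 at -3.61, AT5G39130 at -1.53, AT5G39160 at -1.26 and GER2 at -1.46 on the log2 scale. The call of AT5G39130 was lost with DESeq2 (adjusted p = 0.052) and without control replicate 1 (edgeR adjusted p = 0.051). AT5G39130 is the middle gene of the run, and without its call fewer than 3 neighbours remain on either side. The run thus depends on that call. AT5G39150 and AT5G39180, which had no count with YC4-R4, carry locus numbers within the same span. AT5G39110 rested on few counts, and its value was -4.55 without YC4-R4 replicate 1 and -7.88 without replicate 3. A run of 4 TIR-domain genes lay on chromosome 1 (27429916 to 27439209), with AT1G72920 at -3.32, AT1G72910 at -2.24, AT1G72900 at -1.59 and AT1G72890 at -1.04. The CBF run on chromosome 4 (13015250 to 13022996) held CBF2, DREB1A (-1.68 ± 0.27) and CBF1. On chromosome 2 (15420065 to 15425129), UGT73C6 (-1.73 ± 0.12) and DOGT1 (-1.4 ± 0.08), which attach glucose to small molecules, fell with AT2G36792, which overlaps UGT73C6. Near-identical neighbours such as these can share reads, so the division of counts among them is uncertain.

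Counted by family, the share of lower calls in several groups of early-response regulators lay above that of all tested genes (16.9% lower, 12.9% higher). Of AP2/ERF factors, 23 of 104 were called higher and 40 lower, with a median log2 change of -0.13; 21 of the 40 fell by 2-fold or more, against 2.31% of all tested genes. ERF6 (-2.35 ± 0.07) and RAV2 (-1.77 ± 0.06) were among them. Of WRKY factors, 5 of 57 were called higher and 13 lower, with WRKY70, a regulator of salicylic acid signalling (-2.24 ± 0.06), WRKY40 (-2.0 ± 0.07) and WRKY53 (-1.89 ± 0.08) next to WRKY33. No heat shock factor rose and 8 of 18 fell, 5 of them by 2-fold or more, led by HSFB2A (from 22.7 ± 1.0 to 4.96 ± 0.65 CPM). Of B-box zinc finger proteins, many of which act in light signalling, 2 of 25 were called higher and 14 lower, with BBX16 (-1.5 ± 0.12) furthest. NAC factors divided into 4 higher and 14 lower of 70, led by NAC062 (-1.52 ± 0.05), and MYB factors into 9 and 16 of 89, a share of lower calls near that of all genes. C2H2 zinc finger proteins had 10 higher and 14 lower of 105, and 24 and 12 with library totals. Their share of lower calls lay below that of all genes, although the stress regulators STZ (-2.15 ± 0.07), ZAT6 (-2.59 ± 0.11) and RHL41 (-1.83 ± 0.1) were among those that fell. Proteins with a VQ motif, partners of WRKY factors, had 12 of 25 lower, 6 by 2-fold or more, and 0 higher.

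Some families were balanced or turned with the scaling. The bHLH factors had 17 higher and 21 lower of 111, and 29 and 15 with library totals. The bZIP factors had 2 and 10 of 49, and 10 and 5 with library totals, and the homeobox factors 8 and 19 of 71, and 17 and 11.

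A list of 20 touch- and wound-induced genes moved with these families: 18 of 20 were lower, 15 by 2-fold or more. It summed to 3149.5 to 3239 CPM over the control libraries and 1379 to 1398 CPM over the YC4-R4 libraries. SZF1 (570.4 ± 13.3 to 136 ± 2.4 CPM) and CZF1 (164 ± 3.6 to 36.5 ± 1.5 CPM), zinc finger proteins of stress responses, and ERF104 and ERF6 are members, and XTH25, picked after its values were seen, was called higher (log2 0.41 ± 0.14), although DESeq2 called no member of the list higher. The morning genes of the circadian clock moved too, with 12 of 13 lower and sums of 584 to 599 and 383 to 405 CPM. LHY, a core morning factor, went from 19.9 ± 0.44 to 9.32 ± 0.5 CPM. Evening clock genes moved less, with 3 of 7 lower and sums of 516 to 560.3 and 486 to 496 CPM. Of these 7, only 1 was lower with library totals, with upper quartile scaling or with DESeq2, as the calls of TOC1 and ELF3 were lost under all 3. The part of handling or hour of harvest in the falls of other families was not tested.

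Many intracellular immune receptors were lower by small amounts. Of NB-ARC receptors, which detect pathogen effectors, 3 of 93 were called higher and 43 lower, with a median log2 change of -0.24, and the balance stayed at 11 and 38 with library totals. Of TIR-domain proteins, which overlap that family, 3 of 72 were called higher and 32 lower, with a median log2 change of -0.23, and 11 fell by 2-fold or more. AT1G66090, a TIR-NB-ARC gene, stood at 68.3, 73.6 and 69.5 CPM in the control libraries and at 10.6, 11.1 and 10.6 CPM with YC4-R4 (log2 -2.71 ± 0.07). AT1G72940 went from 75.7 ± 0.88 to 16.1 ± 0.81 CPM and AT5G41750 from 66.4 ± 3.8 to 19.1 ± 0.25 CPM. The surface receptors with leucine-rich repeats did not share this balance: 33 of 173 were higher and 34 lower, and FLS2, the receptor of bacterial flagellin, rose from 24.6 ± 2.9 to 55.3 ± 1.8 CPM. With library totals these receptors had 53 and 20.

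Ubiquitin ligases and calcium proteins fell in part. Of U-box ligases, 4 of 51 were called higher and 19 lower; PUB23 (-1.24 ± 0.07), which dampens immune signalling, PUB25 (-1.56 ± 0.12) and PUB26 (-1.37 ± 0.09) were among them. RING-type zinc finger proteins had 15 higher and 70 lower of 326, but 49 and 39 with library totals, so their balance turned with the scaling. CNI1, a RING ligase of the carbon and nitrogen response, went from 40.2 ± 2.2 to 5.97 ± 0.91 CPM, and ATL2 from 53.6 ± 2.1 to 13.9 ± 2.2 CPM. Of EF-hand calcium sensors, 10 of 89 were called higher and 21 lower, and 30 and 18 with library totals; 10 fell by 2-fold or more and none rose by that much. MSS3 went from 141 ± 2.5 to 25.7 ± 1.1 CPM and CPK32, a calcium-dependent kinase, from 208 ± 7.2 to 79.8 ± 3.7 CPM.

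**Figure D3:**
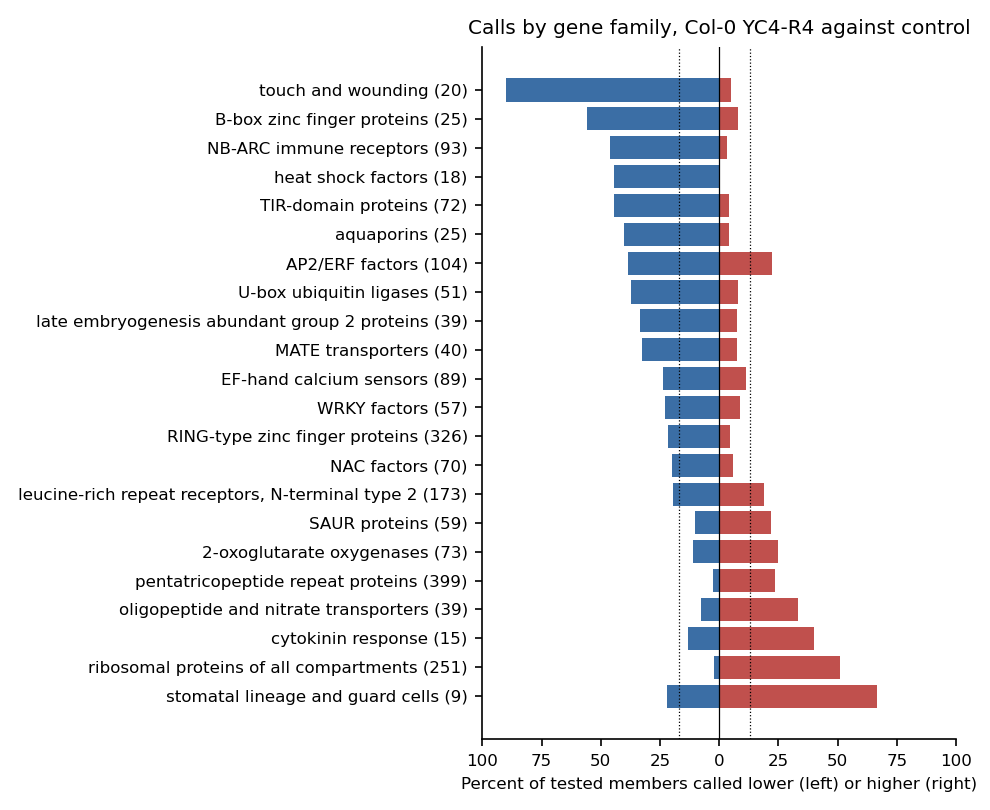
Percent of tested members called lower (blue, to the left) or higher (red, to the right) with YC4-R4 in 22 gene families and lists, with the number tested in parentheses and dotted lines at the share of all tested genes (16.9% lower, 12.9% higher). Touch, B-box, NB-ARC and heat shock factor genes lie beyond the line on the lower side, and ribosomal, cytokinin and stomatal genes beyond it on the higher side.

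The promoters of 4 genes that fell are shown because each holds TTGAC and CGCGT, a pair of the motifs that were more frequent among strongly lowered genes than among all tested genes. These are the 250 bases before the annotated start, 5′ to 3′ along the gene, from RefSeq TAIR10.1. Capitals mark TTGAC, the W-box core bound by WRKY factors, and CGCGT, the core of sites bound by calmodulin-binding CAMTA factors, on either strand. In DIC2 and AT1G66090, ACGCGT holds the CGCGT core on both strands, and its last letter is left small. MYB77 lies at chr3:18559327-18559576, minus strand; CBF2 at chr4:13016236-13016485, minus strand; DIC2, a mitochondrial carrier that went from 175 ± 5.7 to 31.6 ± 1.3 CPM, at chr4:12686209-12686458, plus strand; and AT1G66090 at chr1:24601783-24602032, plus strand.
MYB77: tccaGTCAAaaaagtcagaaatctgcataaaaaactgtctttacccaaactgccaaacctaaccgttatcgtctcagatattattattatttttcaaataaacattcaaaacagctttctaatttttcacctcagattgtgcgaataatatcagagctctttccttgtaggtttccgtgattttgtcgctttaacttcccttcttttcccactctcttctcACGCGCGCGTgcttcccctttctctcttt
CBF2: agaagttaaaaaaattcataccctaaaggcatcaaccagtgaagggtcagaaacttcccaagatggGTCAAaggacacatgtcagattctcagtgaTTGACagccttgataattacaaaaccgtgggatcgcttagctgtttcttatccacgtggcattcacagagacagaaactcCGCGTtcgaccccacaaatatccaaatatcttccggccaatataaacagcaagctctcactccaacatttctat
DIC2: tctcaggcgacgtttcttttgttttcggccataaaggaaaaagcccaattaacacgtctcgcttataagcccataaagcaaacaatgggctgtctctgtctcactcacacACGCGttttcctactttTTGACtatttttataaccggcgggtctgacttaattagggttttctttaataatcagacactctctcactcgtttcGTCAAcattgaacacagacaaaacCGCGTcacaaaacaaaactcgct
AT1G66090: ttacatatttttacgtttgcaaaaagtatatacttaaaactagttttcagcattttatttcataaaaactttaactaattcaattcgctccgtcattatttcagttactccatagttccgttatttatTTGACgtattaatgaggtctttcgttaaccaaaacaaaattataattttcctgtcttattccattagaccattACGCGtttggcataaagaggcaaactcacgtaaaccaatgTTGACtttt

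CGCGT occurred in 14.3% of the 467 promoters of genes 2-fold or more lower, in 3.43% of the 204 of genes 2-fold or more higher, and in 7.49% of the 20504 promoters of tested genes. The matching shares for TTGAC were 54.4%, 47.5% and 45.2%. The longer W-box, TTGACC or TTGACT, was found in 36%, 27.5% and 28.4%, and it overlaps the core by construction. The promoters of NB-ARC receptors held it in 40.9%. For CACGTG, the G-box, the shares were close, at 7.07%, 7.35% and 7.24%. AAATATCT, the evening element, stood at 7.49%, 7.84% and 4.95%. GCCGCC, the GCC-box bound by ethylene response factors, was found in 3.64%, 1.47% and 1.94%, and GATAAG, the I-box, in 14.8%, 10.3% and 12.4%. CCGAC, the core of sites bound by CBF factors, stood at 10.5%, 11.8% and 12.7%. CGCGTT, which overlaps CGCGT by construction, stood at 5.57%, 1.96% and 2.85%. Among the genes that fell, ERF104, ORA47 and AT1G72920 held neither TTGAC nor CGCGT in this window. All shares are counts of letters and not of bound sites. For genes 2-fold or more higher they rest on few promoters, 7 with CGCGT, 4 with CGCGTT and 3 with GCCGCC. For genes 2-fold or more lower, the 95% intervals were 11.3% to 17.9% for CGCGT, 49.7% to 59.0% for TTGAC and 11.7% to 18.3% for GATAAG. The interval of GATAAG holds the share of all tested genes. Over the 3427 promoters of all genes called lower, the shares were 45.4% for TTGAC, 8.75% for CGCGT and 16.0% for GATAAG. Their 95% intervals were 43.7% to 47.1%, 7.83% to 9.75% and 14.8% to 17.2%. In that larger set TTGAC lay near its share of all tested genes, and CGCGT and GATAAG lay above theirs.

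Genes of protein synthesis rose in large numbers by small amounts. Of ribosomal proteins of all compartments, 128 of 251 were called higher and 5 lower, with a median log2 change of 0.13, none of them by 2-fold, and with library totals 203 and 0. AT3G09200, a protein of the large subunit, stood at 385, 376 and 379 CPM in the control libraries and at 446, 442 and 428 CPM with YC4-R4 (log2 0.21 ± 0.03), and RPL3B, also of the large subunit, at 20.8, 20.6 and 20.7 CPM in the control libraries and at 30.7, 31.2 and 29 CPM with YC4-R4 (log2 0.55 ± 0.07). AT5G59850, of the small subunit, went from 84.7 ± 3.8 to 102 ± 2.2 CPM. Of pentatricopeptide repeat proteins, which process RNA in chloroplasts and mitochondria, 94 of 399 were called higher and 11 lower, with a median log2 change of 0.22; the counts were 187 and 4 with library totals and 43 and 8 with DESeq2. Chaperonins of the Cpn60 and TCP-1 type, which fold new proteins, had 12 of 20 higher and 0 lower, and DEAD-box RNA helicases with a Q motif 18 of 41 higher and 1 lower, and 33 and 1 with library totals. Proteasome subunits had 8 of 35 higher and 0 lower, and 27 and 0 with library totals. Tubulins and actins had 3 higher and 4 lower of 30, and 12 and 0 with library totals, and core histones 1 and 7 of 37, and 5 and 2 with library totals.

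A pair of ribosomal protein promoters is shown next, with capitals on site II letters, TGGGCC or TGGGCT on either strand. These letters are known from promoters of ribosomal and dividing-cell genes. Each display marks its own motifs only. RPL3B also holds TTGACC, left small, and the promoter of DIC2 shown above also holds site II letters, left small. The capitals therefore do not set these promoters apart from those of lowered genes. RPL3B lies at chr1:22723153-22723402, minus strand and AT5G59850 at chr5:24113618-24113867, minus strand, both from RefSeq TAIR10.1.
RPL3B: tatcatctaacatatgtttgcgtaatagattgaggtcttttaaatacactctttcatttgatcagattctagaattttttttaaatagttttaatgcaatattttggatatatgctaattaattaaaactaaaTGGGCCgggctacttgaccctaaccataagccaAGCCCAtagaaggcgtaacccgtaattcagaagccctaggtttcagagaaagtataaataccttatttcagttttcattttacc
AT5G59850: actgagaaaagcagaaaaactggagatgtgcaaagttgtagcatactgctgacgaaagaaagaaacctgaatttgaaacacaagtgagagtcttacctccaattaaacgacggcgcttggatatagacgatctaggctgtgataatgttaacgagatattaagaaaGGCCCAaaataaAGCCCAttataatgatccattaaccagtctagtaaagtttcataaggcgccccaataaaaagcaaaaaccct

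Site II letters were found in 61% of 251 ribosomal protein promoters and in 22% of all tested genes. Over the 2659 promoters of all genes called higher the share was 22.5%, near that of all tested genes. Among strongly changed genes the shares were 9.42% for the genes 2-fold or more lower and 10.3% for those 2-fold or more higher. AAACCCTA, the telo-box, occurred in 15.5% of ribosomal protein promoters, 8.27% of pentatricopeptide repeat promoters and 3.53% of all.

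Genes of light harvesting were lower by modest amounts. Of 21 tested chlorophyll a/b binding proteins, which collect light for the photosystems, 20 were lower and 0 higher, with a median log2 change of -0.42, and 19 and 0 with library totals. CAB1 stood at 16574, 17645 and 17464 CPM in the control libraries and at 12222, 12118 and 12199.5 CPM with YC4-R4 (log2 -0.5 ± 0.04). LHB1B2 went from 10913 ± 354 to 7123 ± 17.5 CPM and LHB1B1 from 4669.8 ± 169 to 2611 ± 16.7 CPM, and CAB2, CAB3, LHCB3, LHCB5 and LHCA4 fell by 0.59, 0.53, 0.49, 0.36 and 0.4 on the log2 scale. RCA, which activates Rubisco (-0.31 ± 0.03), and RBCS1A, a Rubisco small subunit (-0.17 ± 0.03), also fell, although the call of RBCS1A was lost with library totals. All 9 leaf markers were lower, 5 with library totals, and their sums are given above. Members of this family share long identical stretches, so their division of counts is uncertain.

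Of 100 tested chloroplast genes, 51.0% were lower and none higher, and of 26 mitochondrial genes 11.5% were lower. ATCG00480, a chloroplast gene, stood at 3791, 4245 and 4073 CPM in the control libraries and at 3054, 2894 and 2777 CPM with YC4-R4 (log2 -0.47 ± 0.05). Organelle genes took 1.24% to 1.36% of the counts in control and 1.04% to 1.13% in YC4-R4 libraries. AT3G41768, annotated as ribosomal RNA, stood at 1989, 1609 and 1542 CPM in the control libraries and at 625, 617 and 676 CPM with YC4-R4 (log2 -1.42 ± 0.14). Nuclear ribosomal RNA took 0.147% to 0.192% of control counts and 0.0638% to 0.0703% with YC4-R4, and the part of RNA preparation in these transcripts was not tested.

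Genes of growth and development moved in both directions. The stomatal lineage list had 6 of 9 members higher and 2 lower, and summed to 74.2 to 77.6 CPM in control and 118 to 129 CPM with YC4-R4. TMM, a receptor that spaces stomata, stood at 12, 13 and 11.1 CPM in the control libraries and at 44.7, 46.2 and 42 CPM with YC4-R4 (log2 1.88 ± 0.07). SPCH, the factor that starts the lineage, went from 3.48 ± 0.82 to 9.88 ± 1.4 CPM, FAMA from 19.7 ± 0.94 to 26.7 ± 1.1 CPM and SLAC1, the guard cell anion channel, from 3.5 ± 0.7 to 6.66 ± 1.0 CPM. EPF2, a peptide that limits stomatal density and a gene picked after its values were seen, went the other way, from 2.6 ± 0.24 to 0.345 ± 0.19 CPM. Of cytokinin response genes, 6 of 15 were called higher and 2 lower; ARR7 (0.53 ± 0.06), ARR6 (0.66 ± 0.08) and RR16 (0.81 ± 0.1) rose and RR5 (-0.87 ± 0.07) fell. Of SAUR proteins, small auxin-induced growth regulators, 13 of 59 were called higher and 6 lower, with AT4G38840 going from 21.2 ± 1.8 to 43.6 ± 2.0 CPM and AT3G09870 from 6.06 ± 0.72 to 1.01 ± 0.57 CPM. Of expansins, which loosen cell walls, 9 of 22 were called higher and 5 lower: EXPA8 fell from 51.1 ± 5.0 to 7.84 ± 0.76 CPM and EXPA1 rose from 87.9 ± 1.4 to 132 ± 3.8 CPM. Of Aux/IAA and ARF proteins, 1 of 33 were called higher and 10 lower, and 6 and 7 with library totals.

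Among enzymes and transporters, 2-oxoglutarate oxygenases had 18 higher and 8 lower of 73, and 4 of them rose by 2-fold or more. AT5G05600, like AT2G38240 a jasmonic acid oxidase, went from 13.6 ± 1.1 to 50.9 ± 0.67 CPM. Cytochrome P450 genes had 24 higher and 34 lower of 158, and 34 and 24 with library totals; CYP707A3, which breaks down abscisic acid, went from 102 ± 4.8 to 23.3 ± 1.9 CPM. Oligopeptide and nitrate transporters had 13 of 39 higher and 3 lower, among them GTR1, a glucosinolate transporter (from 142 ± 1.3 to 257 ± 4.9 CPM), and NRT1.7, which moves nitrate between leaves (from 61.6 ± 1.3 to 103 ± 3.5 CPM). Aquaporins had 1 of 25 higher and 10 lower, a balance that turned to 6 and 3 with library totals. MATE transporters had 3 of 40 higher and 13 lower.

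Changes of 2-fold or more were more frequent among genes with few exon blocks. Of protein-coding genes made of 1 exon block, 5.59% fell and 2.14% rose by 2-fold or more; of genes with 10 or more blocks, 0.316% and 0.210% did. The share fell at each step between these (3.19%, 1.75% and 0.823% lower). The order was kept among genes of like level: with an average log2 CPM of 4 to 6, 37 of 754 genes with 1 exon block fell by 2-fold or more, and 0 of 1804 with 10 or more blocks. The share of genes called also rose with level. Under a log2 CPM of 0, 12.4% of genes were called and the median size of a called change was 1.54, whereas at 8 and over 64.1% were called with a median of 0.21. Exonic length moved with the share of strong falls as well. Of the shortest 20% of genes 3.73% fell by 2-fold or more, and of the longest 20% 0.905%. By GC content that share was 3.90% in the 20% of genes with least GC. It went down to 1.29% in the next-to-highest 20% and was 1.71% in the 20% with most. For calls of any size, 26.5% of the shortest 20% and 32.1% of the longest 20% were called. The steps between by length were not steady (30.3%, 28.8% and 31.6%).

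**Figure D4:**
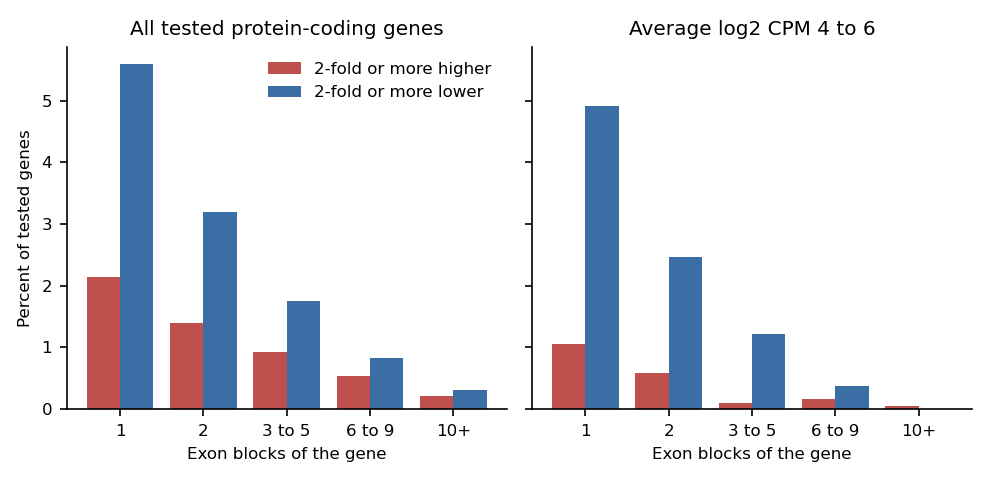
Percent of tested protein-coding genes called and changed by 2-fold or more (vertical axis), higher in red and lower in blue, by number of exon blocks (horizontal axis), for all genes on the left and for genes of average log2 CPM 4 to 6 on the right. The share lower falls from left to right in both panels, from 5.59% to 0.316% in the left one; the share higher falls in the left panel, and in the right one it stands at 0.101% for 3 to 5 blocks and 0.159% for 6 to 9.

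The response in Col-0 was then set beside that in the libraries labelled rdd. The difference between the 2 responses was called for 6319 genes (30.6%). Of the 478 genes 2-fold or more lower in Col-0, 277 were called lower in rdd too, 38 higher and 163 neither, and the difference was called for 298. Of the 204 genes 2-fold or more higher, 56 were called higher in rdd, 47 lower and 101 neither, and the difference was called for 134. Of genes with the smallest p for that difference, CYP94C1, AT1G72416 (a DnaJ-type chaperone, log2 1.81 ± 0.05), PYL4 (an abscisic acid receptor, 1.38 ± 0.04), WRKY18 (1.0 ± 0.05), ERD7 (0.75 ± 0.04) and ERD5 (0.63 ± 0.04), all 6 rose in Col-0. CYP94C1 fell by 3.61 on the log2 scale in rdd. AT4G17450, MRD1, ACS11, QQS, CPK22 and AT5G35935 moved the same way in both, with no call of a difference.

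**Figure D5:**
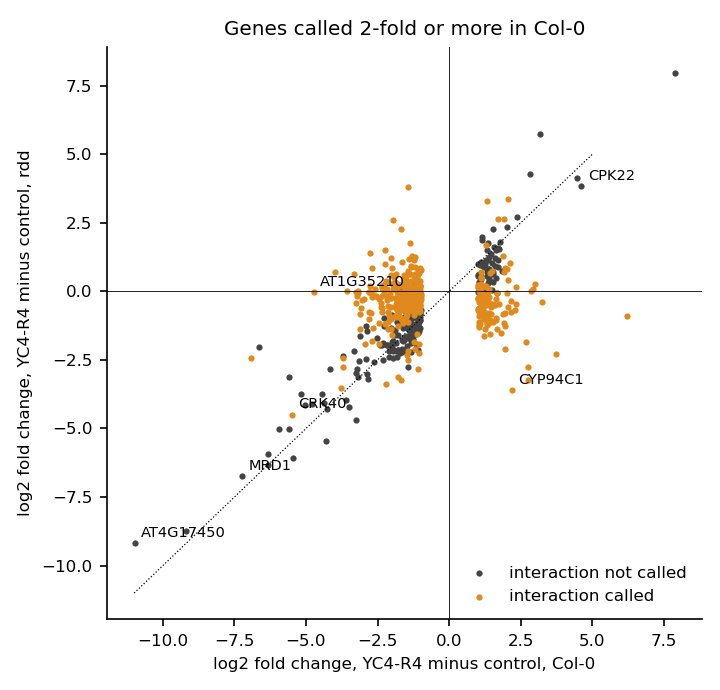
Log2 fold change with YC4-R4 in libraries labelled rdd (vertical axis) against that in Col-0 (horizontal axis) for the 682 genes called at 2-fold or more in Col-0; orange marks genes with a called difference, and the dotted line marks equal change. Points at the far lower left, such as MRD1, lie near the line, and a band of orange points lies near 0 on the vertical axis.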

How the data were processed

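RNA was extracted with an RNeasy kit and made into directional libraries, per the labels' protocols. The authors deposited raw read counts per gene, and the submitters' processing notes name Trimmomatic 0.36, HISAT2 2.1.0, HTSeq 0.9.1 and the build TAIR10. The strand setting of the counting is not given in the sources used here, so counts of overlapping genes are uncertain. Of the genes named, MRD1, AT5G51190, WRKY33, WRKY40, WRKY53, UGT73C6, LHB1B2, CAB1, LHCB3, LHCA4, RCA, AT3G09200, ARR6, GTR1, SLAC1, FLS2, ABR1 and RBL7 overlap another tested gene. Near-identical copies can share reads, so their counts are uncertain as well. Gene names, exon blocks and promoters came from RefSeq TAIR10.1, which matched 20505 of 20651 tested genes.

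Counts were analysed in R 4.3.3 with edgeR 4.0.16: filterByExpr, TMM, and a quasi-likelihood fit of 1 mean per group to all 12 libraries (8 residual degrees of freedom), with Benjamini-Hochberg adjustment over all tested genes. Levels are TMM-scaled CPM; errors after ± are standard errors for log2 values and SD (n = 3) for CPM ranges given as means. The p-values measure only the spread between the libraries of a group, which may be technical. On simulated data with 20509 genes, the share of changed genes found in the Col-0 comparison was 32% for a fold of 1.2, 86% for 1.5 and 100% for 2, with calls for 0.0345% of the unchanged ones. Only 50 genes were changed at each fold, all at an average log2 CPM of at least 1. Far more genes were called in the data (6145), so these shares may not carry over. All pairs of Col-0 replicates differed by more than counting noise.

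The members, the 78 gene lists and the tests were chosen with earlier results of these data known, and lists are described by counts, with no test. Genes named were the 15 highest and 15 lowest called fold changes without overlap at a mean log2 CPM of at least 1, the 12 called genes with the largest change in CPM, the 10 transcription factors with the largest changes, up to 4 called members of a described list with the smallest adjusted p, the demethylases, the 6 genes with the smallest interaction p, and members of runs. InterPro domain names were counted over 368 domains with at least 20 tested genes. Motifs were searched in 250 bases before the start on both strands. Alternatives were DESeq2 1.42.0, other scalings and filters, the Col-0 libraries alone, the replicate number as a block, a test against a fold of 1.2 and leaving out each library.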

Additional observations from a re-analysis of the deposited data

Results flagged for a closer look

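The response to YC4-R4 differed between Col-0 and the libraries labelled rdd for 6319 genes in the test of the difference itself (adjusted p under 0.05, edgeR). Among the 113 genes given with values above, the difference was called for 94. Control levels of both sets of libraries enter this difference, as do levels with YC4-R4. On the main axis of variation among the 12 libraries, Col-0 control libraries stood at 40.87 to 42.57 and the others at -27.15 to -5.11. The difference below is the log2 change in rdd minus the log2 change in Col-0. It was above 0, and thus the rdd change lay on the higher side of the Col-0 change, at 4.69 for AT1G35210, 3.97 for DREB1A, 3.95 for AT1G72920, 3.57 for CBF1, 3.54 for EXPA8, 3.22 for AT1G72910, 3.21 for CBF2, 2.93 for CNI1, 2.83 for AT5G51190, 2.72 for ERF104, 2.7 for MYB77, 2.67 for AT3G09870, 2.61 for AT1G66090 and 2.56 for DOGT1. Next in size came 2.52 for WRKY70, 2.46 for WRKY33, 2.42 for ZAT6, 2.27 for ORA47, 2.23 for CZF1, 2.22 for DIC2, 2.18 for ATL2, 2.16 for AT3G41768, 2.01 for HSFB2A, 1.91 for UGT73C6, 1.75 for ERF13, 1.74 for AT1G72900, 1.65 for WRKY53 and 1.62 for STZ. Smaller differences were 1.59 for ERF6, 1.47 for LHY, 1.45 for RHL41, 1.32 for CSLA01, 1.3 for NAC062, 1.3 for PUB25, 1.27 for AT2G15042, 1.26 for CYP707A3, 1.15 for SZF1, 1.1 for PUB26, 1.04 for AT1G72940, 1.0 for CRK40, 0.98 for AT5G41750 and 0.95 for AT3G46370. Then followed 0.9 for BBX16, 0.88 for AT1G33760, 0.86 for RAV2, 0.73 for PR2, 0.69 for CPK32, 0.69 for EXPA1, 0.63 for RR5, 0.54 for MSS3, 0.52 for LHB1B1, 0.52 for RCA, 0.47 for PUB23, 0.47 for RR16, 0.45 for ATCG00480 and 0.4 for WRKY40. Nearest to 0 were 0.4 for CAB1, 0.32 for LHB1B2, 0.32 for LHCB5, 0.3 for RBCS1A, 0.29 for LHCB3, 0.28 for CAB2, 0.25 for AT2G33830 and 0.22 for LHCA4. It was below 0, and thus the rdd change lay on the lower side of the Col-0 change, at -6.03 for AT2G38240, -5.81 for CYP94C1, -5.49 for ABR1, -4.52 for CYP94B1, -3.33 for AT1G72416, -3.19 for PYL6, -3.07 for AT5G05600, -3.02 for WRKY18, -2.87 for RBL7, -2.46 for ERD7, -2.19 for TPS04, -2.18 for FLS2, -2.17 for PYL4 and -2.04 for ERD5. Next in size came -1.89 for GTR1, -1.64 for ASPGB1, -1.18 for AT1G78170, -1.11 for XTH25, -1.1 for ERF53, -1.08 for BAM5, -1.0 for AT4G38840, -0.78 for SPCH, -0.66 for ARR6, -0.63 for NRT1.7, -0.58 for TMM, -0.39 for RPL3B, -0.38 for FAMA and -0.32 for AT5G59850. Smaller differences were -0.31 for ARR7 and -0.29 for AT3G09200.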

How the results depend on the processing

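Of the counts of genes called, those of 2-fold or more stayed within 1.5 times their reported size under every alternative run, and no named gene changed direction. With library totals the counts higher and lower were 5879 and 2172. Tested against a fold of 1.2, 1858 genes were called, 619 higher and 1239 lower, and 2682 for the difference between genotypes; this test asks for a larger change by construction. DESeq2 called 4971 genes (2041 higher, 2930 lower), upper quartile scaling 6545 (3632 and 2913, 44.5% lower instead of 56.7%), no filter 6198, the stricter filter 6096 and the 6 Col-0 libraries alone 6941. Leaving out 1 of the 12 libraries gave 5065 to 6655 called genes, 192 to 217 of them 2-fold or more higher and 451 to 490 lower. Same-numbered control and YC4-R4 libraries did not deviate together (correlations 0.004, -0.016 and 0.022), so the numbers pair nothing; with the replicate block 6034 genes were called, 5987 of them shared with the 6145 reported, and 6197 for the difference between genotypes. Of 6896 values of the 345 genes that the naming rule covers, 6737 kept their call, 159 lost it, 85 of these in the test against a fold of 1.2 and 19 with library totals, and 0 reversed. In all 300 bases of the promoter table, which run past the start, CGCGT occurred in 16.9% of genes 2-fold or more lower, 5.88% of those higher and 9.6% of all tested genes. Under a log2 CPM of 0 the depth showed only large changes, with a median called size of 1.54. With 3 libraries a group, no outlier test was run.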
